A study of Mus musculus with 9 samples.

Results

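The 8 genes described here encode proteins of the lens cell membrane and its surroundings. They are the water channels *Mip*, *Aqp1* and *Aqp5*, the gap junction connexins *Gja1* and *Gja3*, the fiber cell membrane protein *Lim2*, and *Lgsn* and *Lctl*, 2 further genes used in fiber cells. They were chosen by gene symbol, not by a rule on a measured value, though with earlier results of these data known. All 8 were found, each as 1 entry, among 15820 entries with a symbol in an RNA-seq table of 22013 entries. The table covers mouse embryonic lenses at E16.5 on an ICR background, in 3 groups of 3 libraries with RNA pooled from 8 lenses in each. Control lenses were *Mafg*+/-:*Mafk*+/-, compound knockout (KO) lenses were *Mafg*-/-:*Mafk*+/- and double KO lenses were *Mafg*-/-:*Mafk*-/-. All 3 groups therefore carried at least 1 null allele of both genes, and no wild type lens was included. The alleles are germline knockouts, so each embryo carried its null alleles in every cell and not in the lens only. Mafg and Mafk are small Maf proteins, leucine zipper factors that bind DNA as dimers and have no activation domain of their own.

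The lens has no blood vessels. Its fiber cells lie far from the fluid that feeds them and depend on water channels, ion pumps and gap junctions that pass water, ions and small metabolites from cell to cell. *Mip* encodes the water channel of fiber cells, which is also an adhesion protein between them, while Aqp1 is the water channel of the lens epithelium and Aqp5 is found in both compartments. *Gja1* encodes connexin Cx43, the connexin of epithelial cells, and *Gja3* encodes Cx46, a fiber connexin. *Lim2* encodes MP20, an abundant fiber membrane protein with 4 membrane-spanning stretches, *Lgsn* encodes lengsin, a lens relative of glutamine synthetase, and *Lctl* encodes a klotho family protein (gamma-klotho) that acts with FGF receptors. Mutations of *Mip*, *Gja3* and *Lim2* are known causes of inherited cataract.

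Values are normalized CPM, that is, reads relative to the total of the library, further normalized by the authors and rounded to 1 decimal. The factors of that normalization are not given in the sources used here. Read numbers are not known, and every error stated rests on the spread between libraries. In these pooled whole lenses, a smaller share of cells of a type and less RNA per cell cannot be told apart. The targeted genes followed their labels. *Mafg* was at 112.9, 120.7 and 134.5 normalized CPM in control libraries, and lay between 10.1 and 26.2 in all 6 *Mafg*-/- libraries. *Mafk* lay between 4.3 and 6.3 in the 6 libraries with a functional allele and between 0.0 and 0.6 in double KO libraries.

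Compound KO replicate 1 stood apart from the other 8 libraries. The summed level of 8 lens fiber marker genes was 38292.6 there, against 75395.5 to 124382.7 in the others, and all 8 markers were at their lowest in it. *Mip* and *Lim2* are 2 of these markers, and without them the sum was 34040.5 in this library. The summed level of 8 markers of periocular mesenchyme was 2089.3 in it, against 204.3 or less elsewhere, with 7 of the 8 at their highest. The sums of markers of retinal pigment epithelium (698.6 against 29.0 to 55.6, 5 of 6 genes in the table, of which 4 were at their highest and *Mitf* at its lowest), surface and corneal epithelium (188.3 against 1.8 to 6.9, 3 of 6 genes) and neural retina (470.2 against 22.8 to 131.8, 6 of 6 genes) were likewise at their highest there. No marker in the table was at 0 in all libraries of a group. Of the 8 membrane protein genes, 3 (*Mip*, *Lim2* and *Aqp5*) had their lowest value of all 9 libraries in compound KO replicate 1 and 2 (*Aqp1* and *Gja1*) had their highest. The fitted differences of *Mip*, *Lim2*, *Aqp1* and *Gja1* from compound KO lenses are given with and without this library. The part of these tissues in the values of the 8 genes was not tested.

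The stretches of DNA before 4 of the genes are shown first, because *Mip* and *Lim2* ran in parallel over the libraries while *Gja3* and *Gja1* showed the clearest separations between genotypes. Each runs 5′ to 3′ on the strand of its gene from 250 bases before to 50 bases after the start site in RefSeq (GRCm38.p6), and was matched, at exactly 1 place, to GRCm39, whose positions are given. Capitals mark the letters TGCTGA, the core of the element that Maf proteins bind, and the letters of the TATA box, TATAAA, each searched on both strands (a match on the opposite strand reads TCAGCA or, for the latter motif, TTTATA).
Mip, chr10:128061429-128061728, plus strand: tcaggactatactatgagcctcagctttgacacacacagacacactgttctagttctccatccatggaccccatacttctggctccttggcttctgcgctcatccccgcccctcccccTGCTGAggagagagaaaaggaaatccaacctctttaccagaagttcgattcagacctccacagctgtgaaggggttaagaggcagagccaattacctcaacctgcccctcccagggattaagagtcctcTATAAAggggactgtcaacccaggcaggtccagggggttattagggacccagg
Lim2, chr7:43079273-43079572, plus strand: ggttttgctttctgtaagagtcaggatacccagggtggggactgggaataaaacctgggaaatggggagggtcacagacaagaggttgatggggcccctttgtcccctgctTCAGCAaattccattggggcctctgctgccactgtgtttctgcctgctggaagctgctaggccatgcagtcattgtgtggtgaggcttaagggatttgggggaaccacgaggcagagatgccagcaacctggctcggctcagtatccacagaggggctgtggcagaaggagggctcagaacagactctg
Gja1, chr10:56253146-56253445, plus strand: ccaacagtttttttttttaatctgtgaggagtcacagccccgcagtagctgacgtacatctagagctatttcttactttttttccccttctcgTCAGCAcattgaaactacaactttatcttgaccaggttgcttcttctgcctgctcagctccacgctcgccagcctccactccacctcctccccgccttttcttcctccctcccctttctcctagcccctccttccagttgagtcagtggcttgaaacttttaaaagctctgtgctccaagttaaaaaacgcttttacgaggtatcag
Gja3, chr14:57295438-57295737, minus strand: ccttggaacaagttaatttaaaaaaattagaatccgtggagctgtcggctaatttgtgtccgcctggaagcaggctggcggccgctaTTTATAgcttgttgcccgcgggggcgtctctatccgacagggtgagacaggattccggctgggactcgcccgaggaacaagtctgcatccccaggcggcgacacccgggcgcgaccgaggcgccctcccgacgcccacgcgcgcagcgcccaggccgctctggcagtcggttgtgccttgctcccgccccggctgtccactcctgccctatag

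In GENCODE the *Mip* gene (ENSMUSG00000025389.9) spans 4 exons on chromosome 10 from 128061700 to 128067681. Its TATAAA begins 24 bases before that start, and its TGCTGA begins 153 bases before it. *Lim2* (ENSMUSG00000118560.3) has 5 exons on chromosome 7 from 43079492 to 43085420, and its promoter holds TCAGCA 108 bases before the start but no TATAAA. It overlaps the gene model Gm52993 on the same strand, so reads of the pair may have been divided between them. *Gja1* (ENSMUSG00000050953.12), on chromosome 10 from 56253241 to 56278609, holds TCAGCA 181 bases before the start of its canonical transcript. *Gja3* (ENSMUSG00000048582.9), on the minus strand of chromosome 14 from 57271916 to 57295702, holds no TGCTGA in either of its 2 RefSeq promoters, and holds TTTATA in the upstream one only. Both connexin genes have 2 exons in their canonical transcript.

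The letters TGCTGA occurred in 5 of the 9 promoters that RefSeq gives for the 8 genes, each in a different gene (*Mip*, *Lim2*, *Gja1*, *Lgsn* and *Lctl*), and *Lctl* held them 3 times. Over all 32851 promoters of the same length, 19.5% held them. The TATA box letters occurred in 3 of the 9 (*Mip*, *Lgsn* and *Gja3*), and in 13.6% of all promoters. The letters TGACNNNGC, the core of the antioxidant response element that small Maf proteins bind together with Nrf2, were in 0 of the 9 and in 12.4% of all. These letters describe a short window and do not show that a factor binds there.

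In control lenses the mean levels of the 8 genes spanned from 1.30 to 9506 normalized CPM. *Mip* had the 8th and *Lim2* the 16th highest control mean of the 15820 entries, at 9506 ± 661 and 3374 ± 349 normalized CPM (SD, n = 3 libraries, as for all means below). *Gja1* followed at rank 577 with 144.3 ± 42.5, and *Lctl* at rank 3843 with 30.8 ± 21.5. *Gja3* was at 10.2 ± 0.265 and *Aqp1* at 6.97 ± 2.28, ranks 7824 and 9091. *Lgsn* (1.60 ± 0.624) and *Aqp5* (1.30 ± 0.300) were near the value of 1 at which genes entered the tests, at ranks 12572 and 12975. All 8 passed that filter, but a difference in these last 2 genes rests on less than a unit for *Aqp5*.

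Divided by the length of the canonical transcript, *Mip* reached 4419 ± 307 and *Lim2* 3733 ± 386 normalized CPM per kilobase, with libraries that overlap. *Gja1* was at 30.7 ± 9.03 per kilobase, without overlap with *Lim2*. *Lctl*, at 14.2 ± 9.91 per kilobase, overlapped both *Gja1* above it and *Gja3* (3.69 ± 0.0956) below it. *Aqp1* (2.34 ± 0.766 per kilobase) lay below *Gja3* and above *Lgsn* (0.826 ± 0.322) without overlap, while *Lgsn* and *Aqp5* (0.674 ± 0.156) overlapped. In both knockout groups *Aqp1* took the place above *Gja3* in this order. In compound KO libraries those genes did not overlap (6.16 ± 4.24 against 2.71 ± 0.438 per kilobase), and in double KO libraries they did (3.04 ± 0.788 against 2.12 ± 0.909).

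**Figure D1:**
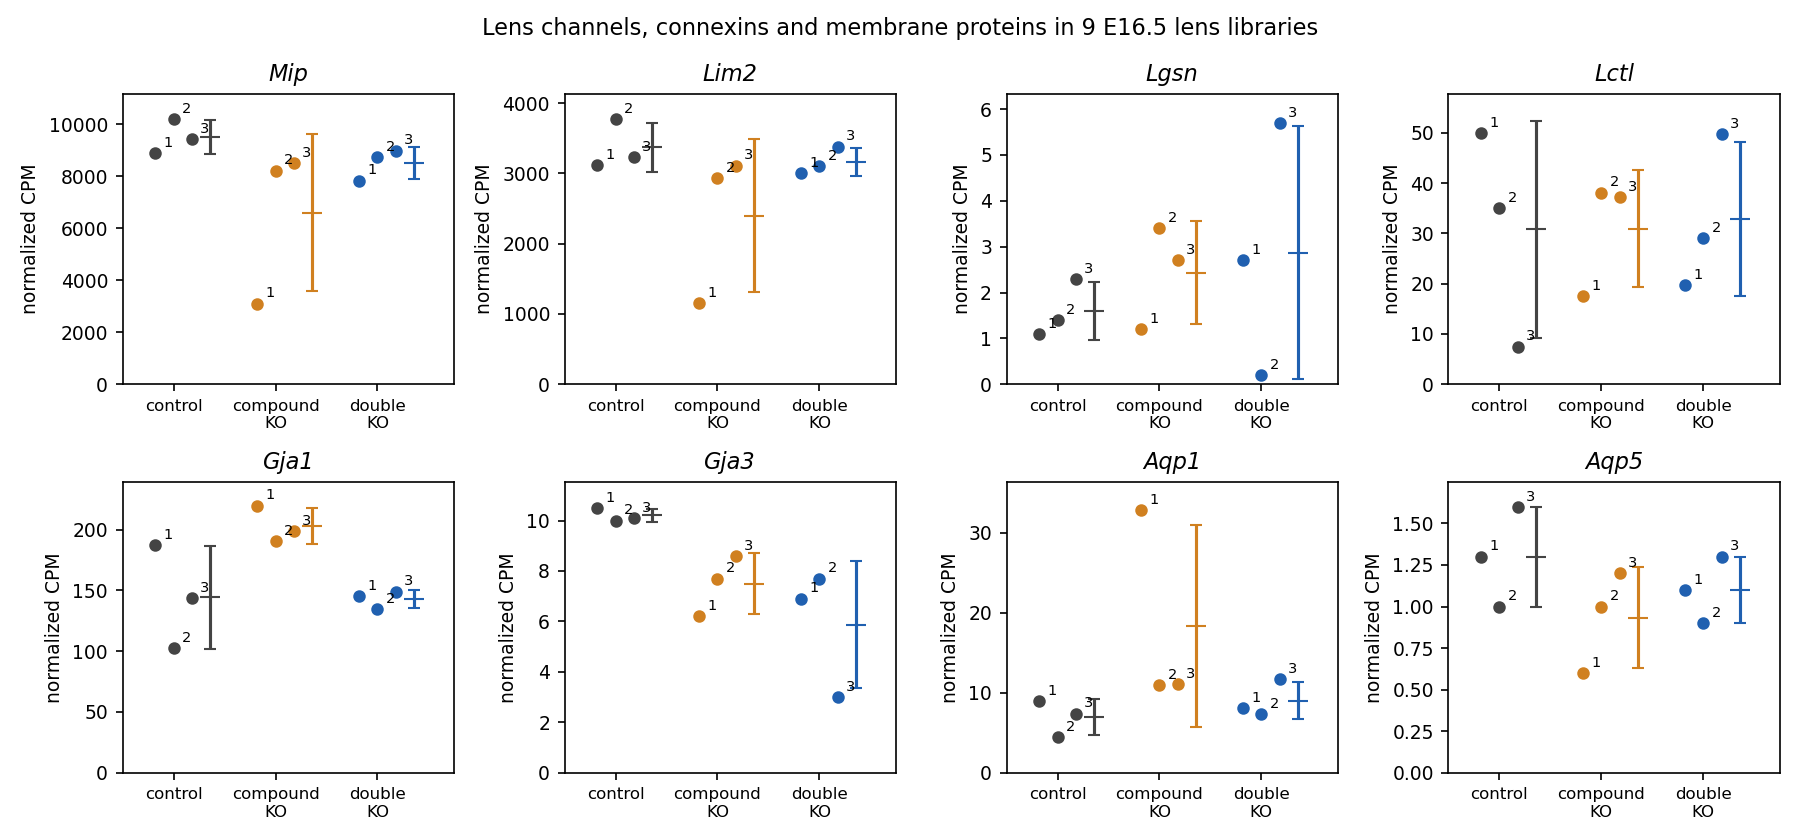
Normalized CPM (vertical axes, linear from 0) of the 8 genes in the 3 control, 3 compound KO and 3 double KO libraries, with the replicate number beside each point and the mean ± SD of each group to its right. *Gja3* lies between 10 and 10.5 in control libraries and between 3.0 and 8.6 in the other 6, and compound KO replicate 1 is far below the rest for *Mip* and *Lim2* and far above for *Aqp1*.

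The comparison of double KO with control lenses asks what the loss of both factors did to these genes. None of the 8 passed the test after adjustment (limma on log2 of the value plus 1, two-sided, called at 1.5-fold or more and an adjusted p up to 0.05), where 0.361% of 14122 genes tested passed. *Gja3* alone, and in the reduced direction, passed with an unadjusted p and the same fold, a criterion that 2.83% of all genes passed. The smallest adjusted p of the 8 was 0.484.

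*Gja3* was at 10.5, 10 and 10.1 normalized CPM in control libraries and at 6.9, 7.7 and 3.0 in double KO libraries. Every double KO library lay below every control library, as was the case in 1 direction or the other for 15.8% of genes. The change was −0.78 on the log2 scale (SE 0.31, 95% confidence interval −1.55 to −0.02, adjusted p = 0.484, limma), or 0.581-fold. Double KO replicate 3 sets much of its size, and without it the change was −0.43 (adjusted p = 0.367, limma), with an unadjusted p under 0.05 but a fold under 1.5. Without control replicate 1, 2 or 3 it was −0.77, −0.80 or −0.79, with adjusted p of 0.640, 0.686 and 0.715 and an unadjusted p above 0.05.

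The fiber genes with the highest levels did not pass the test. *Mip* was at 8878.8, 10197.1 and 9443.0 normalized CPM in control libraries and at 7835.2, 8728.1 and 8987.1 in double KO libraries, with overlap of the groups. The log2 change of *Mip* was −0.16 (SE 0.09, 95% confidence interval −0.38 to 0.06). *Lim2* was at 3118.4, 3771.8 and 3232.4 in control and at 2999.2, 3103.6 and 3382.6 in double KO libraries. Its groups overlapped as well, with a log2 change of −0.09 (SE 0.09, 95% confidence interval −0.32 to 0.14). For both genes the interval leaves out a 1.5-fold change in either direction.

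*Gja1* was at 187.1, 102.2 and 143.6 normalized CPM in control libraries and at 145.0, 134.8 and 148.9 in double KO libraries. The double KO values lay inside the control range, and the log2 change was 0.03 (95% confidence interval −0.51 to 0.56). *Aqp1* was at 9.0, 4.5 and 7.4 in control and at 8.1, 7.3 and 11.7 in double KO libraries, a log2 change of 0.35 (95% confidence interval −0.34 to 1.04) with overlap. *Aqp5* stayed between 0.9 and 1.6 in all 6 libraries, with a log2 change of −0.13 (95% confidence interval −0.49 to 0.23).

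*Lgsn* and *Lctl* had the widest intervals of the 8 genes. *Lgsn* was at 1.1, 1.4 and 2.3 in control and at 2.7, 0.2 and 5.7 normalized CPM in double KO libraries, so that the lowest and the highest value came from the same group. The log2 change of *Lgsn* was 0.28, with a 95% confidence interval from −1.30 to 1.86, and was 0.96 without double KO replicate 2 (adjusted p = 0.511, limma). *Lctl* was at 49.9, 35.0 and 7.5 in control and at 19.7, 29.1 and 49.8 in double KO libraries. The double KO values lay inside the control range, and the log2 change was 0.34 (95% confidence interval −1.49 to 2.17).

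Markers of other tissues moved in this comparison too. The summed level of 6 skeletal muscle markers was 2.2 to 3.8 in control and 20.8 to 64.4 in double KO libraries, and that of 7 erythroid genes was 1169.7 to 1639.3 and 2335.0 to 3866.6. The sum of 7 lens epithelium markers other than *Gja1* was between 3751.3 and 4398.0 in control and between 2690.2 and 2969.0 in double KO libraries, without overlap. Most of this sum was *Cryab*, at 2533.8 to 3190.7 in control and 1571.2 to 1869.4 in double KO libraries. Of the 8 markers with *Gja1* included, 3 were higher and 5 lower. Only *Cryab* and *Cdh1* had groups without overlap, where 15.8% of all genes had none. The part of these in the values of the 8 genes was not tested.

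**Figure D2:**
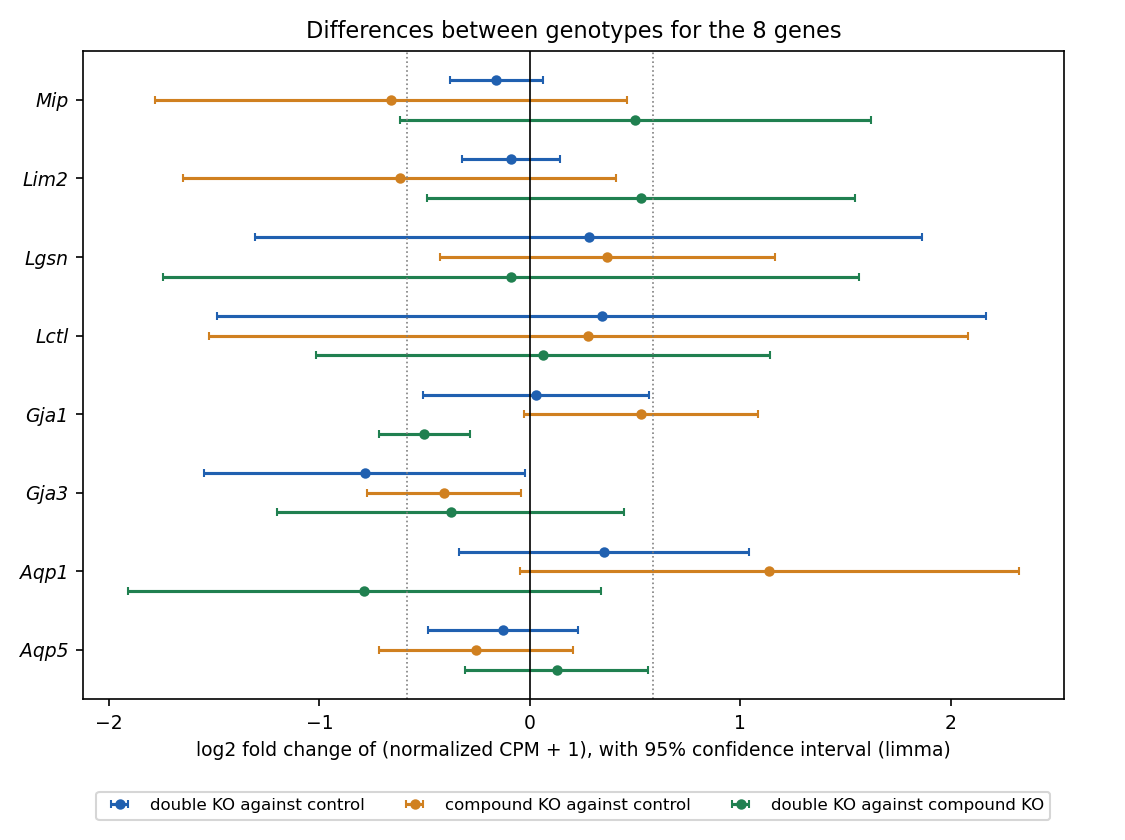
Log2 fold change of normalized CPM + 1 (horizontal axis) for each of the 8 genes in double KO against control, compound KO against control and double KO against compound KO lenses, with 95% confidence intervals from limma and dotted lines at 1.5-fold. The intervals of *Mip* and *Lim2* are narrow in double KO against control lenses and wide where compound KO libraries enter, and the interval of *Gja3* ends below 0 in both comparisons with control.

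The comparison of compound KO with control lenses asks what the loss of *Mafg* did while 1 allele of *Mafk* was kept. None of the 8 genes passed after adjustment, as was so for all 14348 genes tested (0% passed). Without compound KO replicate 1, 13 genes passed, none of them among the 8. With an unadjusted p and 1.5-fold, 0 of the 8 and 5.34% of all genes passed. In 5 of the 8 genes the groups did not overlap, where 23.9% of all genes had no overlap, with *Gja1* and *Aqp1* higher and *Mip*, *Lim2* and *Gja3* lower in compound KO lenses. Under scaling by library size only, the median log2 change of all genes moved from 0.02 to 0.24, and these 5 genes kept their directions.

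*Mip* was at 3102.7, 8221.7 and 8496.7 normalized CPM in compound KO libraries, all below the lowest control library at 8878.8. Its log2 change was −0.66 (SE 0.45, adjusted p = 0.516, limma), and −0.18 (adjusted p = 0.494) without compound KO replicate 1. *Lim2* was at 1149.4, 2935.5 and 3111.0, also below all control libraries, the last only just. For *Lim2* the log2 change was −0.62 (SE 0.42, adjusted p = 0.509, limma), and −0.15 (adjusted p = 0.584) without replicate 1. Most of the fitted difference in both fiber genes was lost without that library.

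*Gja1* was at 219.7, 190.3 and 198.8 normalized CPM in compound KO libraries, above the highest control library at 187.1. The log2 change was 0.53 (SE 0.22, 95% confidence interval −0.03 to 1.08, adjusted p = 0.481, limma), and 0.47 (adjusted p = 0.539) without compound KO replicate 1. The control libraries spread from 102.2 to 187.1, and the unadjusted p was just above 0.05. Without control replicate 1, the highest of them, the change was 0.74 with an unadjusted p under 0.05 (adjusted p = 0.621, limma), and without control replicate 2, the lowest, it was 0.30 (adjusted p = 0.762).

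*Aqp1* was at 32.9, 11.0 and 11.1 normalized CPM in compound KO libraries, against 9.0, 4.5 and 7.4 in control. Its log2 change of 1.14 (SE 0.48, adjusted p = 0.481, limma) was 0.64 (adjusted p = 0.469) without compound KO replicate 1. It passed an unadjusted p of 0.05 without replicate 2 (1.39, adjusted p = 0.480) or replicate 3 (1.38, adjusted p = 0.328). The first value stands far above all others, and the other 2 lie close to each other above the highest control library.

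*Gja3* was at 6.2, 7.7 and 8.6 normalized CPM in compound KO libraries, below all control libraries. This is a log2 change of −0.41 (SE 0.15, adjusted p = 0.481, limma), with an unadjusted p under 0.05 but under 1.5-fold, and −0.29 (adjusted p = 0.397) without compound KO replicate 1. Under scaling by library size only it was −0.18 (adjusted p = 0.529, limma), with an unadjusted p above 0.05. Taken with the double KO lenses, *Gja3* was the only 1 of the 8 genes whose 6 *Mafg*-/- values all lay below the 3 control values, a pattern found in 4.27% of 14578 genes. The comparisons share the control libraries, which lay within 0.5 units of each other for this gene.

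*Lgsn* (1.2, 3.4 and 2.7), *Lctl* (17.6, 38.1 and 37.2) and *Aqp5* (0.6, 1.0 and 1.2 normalized CPM in compound KO libraries) overlapped with control. Their log2 changes were 0.37 (SE 0.32), 0.28 (SE 0.73) and −0.25 (SE 0.19). Without compound KO replicate 1, *Lgsn* was higher by 0.66 and past an unadjusted p of 0.05 (adjusted p = 0.419, limma), on values of 3.4 and 2.7 against at most 2.3 in control.

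Markers of other cell types moved in compound KO replicates 2 and 3 as well. The summed periocular mesenchyme markers were higher in both than in all control libraries (143.6 in replicate 2 against at most 49.8), with neural retina markers at 131.8 and 68.5 against 22.8 to 59.3, and skeletal muscle markers at 25.2 and 16.4 against 2.2 to 3.8. The lens epithelium markers other than *Gja1* summed to 1500.5, 2139.6 and 2755.5 in compound KO libraries, all below control (3751.3 to 4398.0). Of the 8 markers with *Gja1* included, 6 were lower and 2 higher, each without overlap, where 23.9% of all genes had no overlap. The 2 higher were *Gja1* and *Pax6* (162.7, 149.0 and 139.8 in compound KO against 88.0 to 121.1 in control libraries). The part of these in the values of the 8 genes was not tested.

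The comparison of double KO with compound KO lenses asks what the loss of the last *Mafk* allele added. None of the 8 genes passed after adjustment, where 0.0139% of 14402 genes did, and none passed with an unadjusted p and 1.5-fold, where 3.06% did. *Gja1* had the smallest p of the 8. It was at 145.0, 134.8 and 148.9 normalized CPM in double KO libraries and at 219.7, 190.3 and 198.8 in compound KO libraries, the only 1 of the 8 genes without overlap here, as for 15.6% of all genes. Its log2 change was −0.50 (SE 0.09, 95% confidence interval −0.72 to −0.28, adjusted p = 0.613, limma), or 0.706-fold, which is under the 1.5-fold threshold. Its unadjusted p was under 0.05, as for 4.87% of genes at any fold. Without compound KO replicate 1 the change was −0.44 (adjusted p = 0.389, limma). Under scaling by library size only it was −0.69 and passed 1.5-fold (adjusted p = 0.715), with the median of all genes at −0.17. The control lenses, which like compound KO lenses kept 1 *Mafk* allele, had *Gja1* values on both sides of those of double KO lenses.

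The other 7 genes overlapped between the knockouts. *Aqp1* differed by −0.79 (SE 0.45), of which −0.29 remained without compound KO replicate 1. *Mip* and *Lim2* differed by 0.50 (SE 0.45) and 0.53 (SE 0.41), and by 0.02 and 0.06 without that library. *Gja3* differed by −0.38 (SE 0.33), *Aqp5* by 0.13 (SE 0.18), *Lgsn* by −0.09 (SE 0.67) and *Lctl* by 0.06 (SE 0.44).

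**Figure D3:**
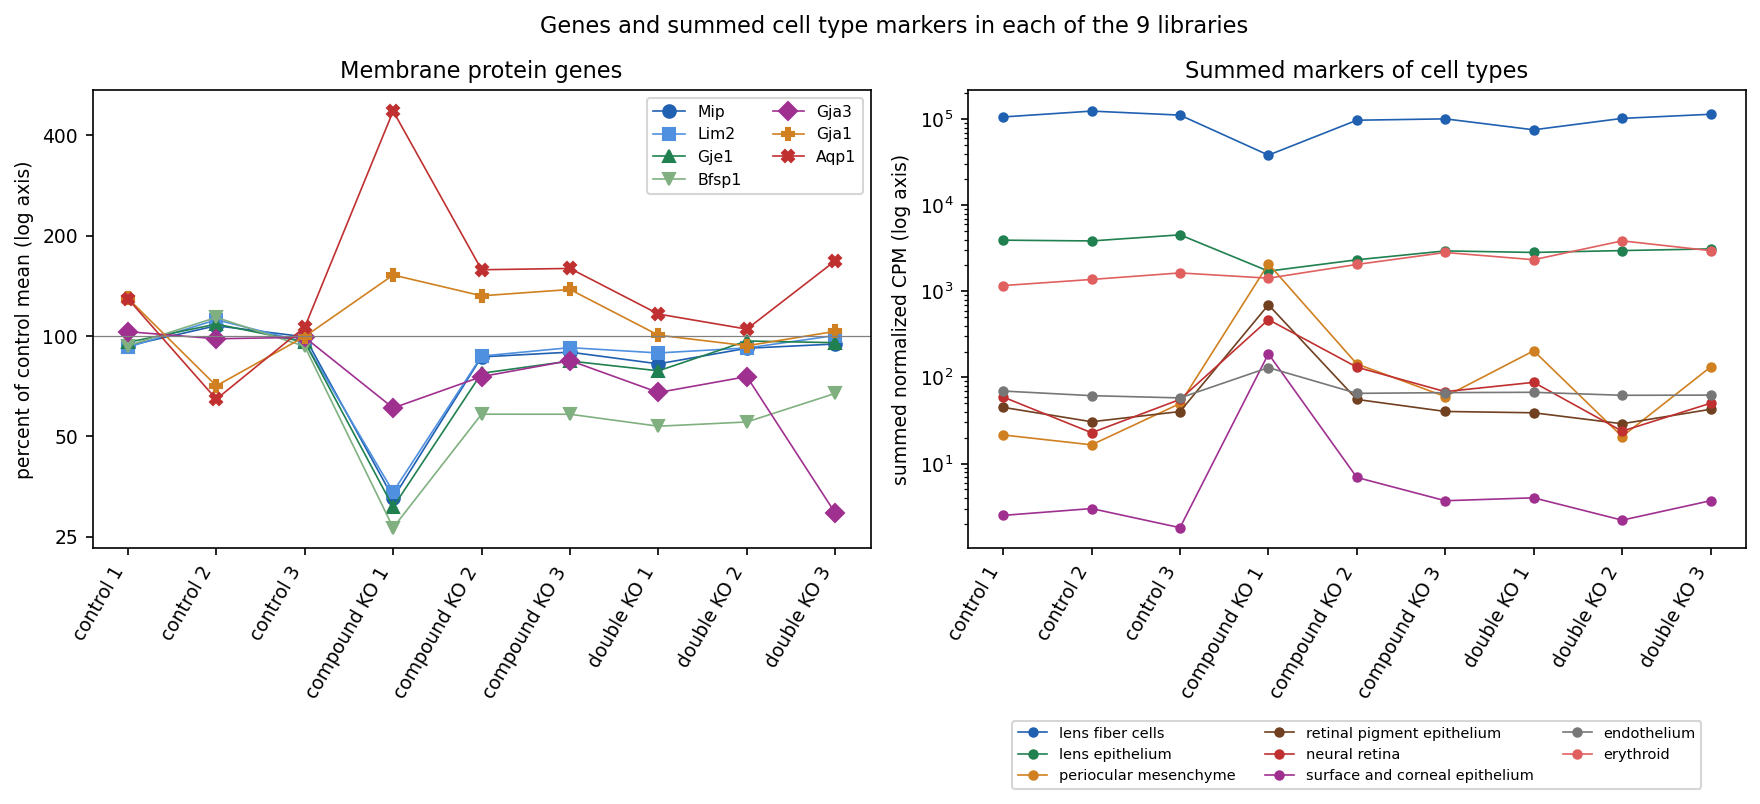
Left, level of 7 genes in each library as a percentage of the mean of the 3 control libraries (log axis). Right, summed normalized CPM of marker lists for 8 cell types in the same libraries (log axis). In compound KO replicate 1, *Mip*, *Lim2* and *Gje1* sit between 30.7% and 34.1% of control and *Aqp1* at 472%, in the library with the highest sums of mesenchymal, retinal, pigment epithelial and surface epithelial markers.

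Ratios within a library, chosen after the values were seen, do not depend on scaling between libraries. The ratio of *Mip* to *Lim2* lay between 2.61 and 2.92 in all 9 libraries and was 2.70 in compound KO replicate 1, where both genes were at 32.6% and 34.1% of the control mean. It was 2.82 ± 0.111 in control, 2.74 ± 0.0518 in compound KO and 2.69 ± 0.105 in double KO lenses. *Gja3* per 1000 units of *Mip* was 1.18, 0.981 and 1.07 in control libraries and 0.881, 0.882 and 0.334 in double KO libraries. The double KO libraries were again all lower, at 0.594-fold (exact permutation test, two-sided, p = 0.1, the smallest that 3 against 3 libraries allow). In compound KO libraries it was 2.00, 0.937 and 1.01, not separated from control. *Gja1* per 1000 units of *Mip* was 21.1, 10 and 15.2 in control, 70.8, 23.1 and 23.4 in compound KO and 18.5, 15.4 and 16.6 in double KO libraries. Here too compound KO libraries stood above both other groups without overlap (2.29-fold against control, exact permutation p = 0.1). Compound KO replicate 1 sets much of that fold, and replicates 2 and 3, at 23.1 and 23.4, lay just above the highest control library at 21.1. Among 12 such comparisons of 4 ratios the smallest p was 0.1, and none can pass a threshold of 0.05.

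Over the 9 libraries, 16 of the 28 pairs of the 8 genes correlated positively and 12 negatively. *Mip* and *Lim2* had the closest relation (Pearson's r = 0.995, exact permutation p = 0.000281, adjusted over the 28 pairs 0.00787, and Spearman's rho = 0.950, adjusted p = 0.00988). The relation held with r = 0.767 without the 2 libraries farthest from the median of *Mip* (control replicate 2 and compound KO replicate 1) and with r = 0.995 after removal of group means. *Aqp1* and *Gja1* varied together (r = 0.812, exact permutation p = 0.00770, adjusted 0.0609, and rho = 0.900, adjusted p = 0.0284), with r = 0.851 without compound KO replicate 1, r = 0.648 without the 2 farthest libraries and r = 0.642 without group means. The relations of *Aqp1* with *Mip* (r = −0.906, exact permutation adjusted p = 0.0609) and with *Lim2* (r = −0.904, exact permutation adjusted p = 0.0609) were −0.640 and −0.627 without compound KO replicate 1, −0.862 and −0.870 after removal of group means, and −0.165 and 0.119 without the 2 farthest libraries. *Lctl*, *Lgsn* and *Gja3* had no pair with an unadjusted p of at most 0.05.

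**Figure D4:**
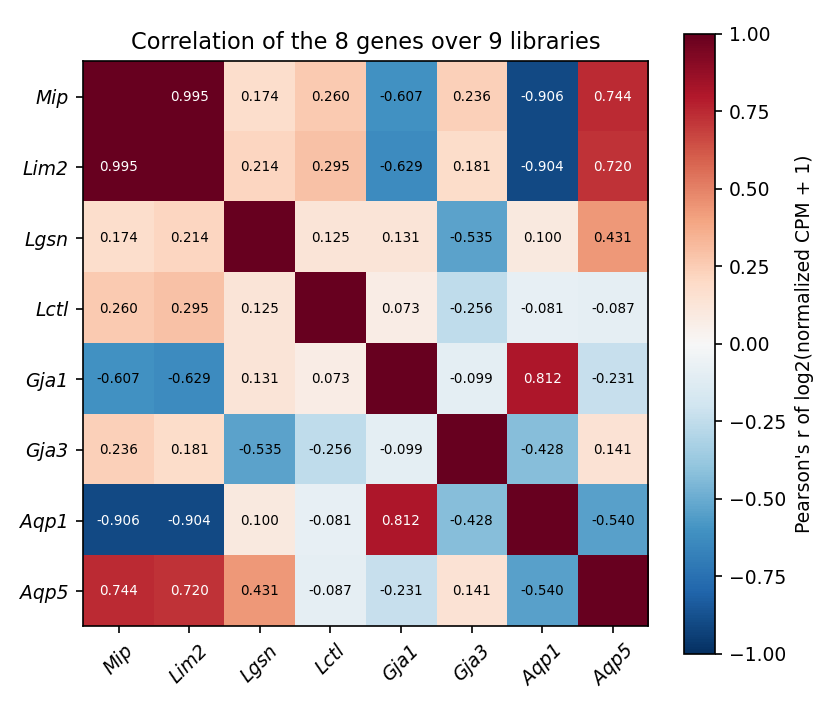
Pearson's r of log2(normalized CPM + 1) over the 9 libraries for each pair of the 8 genes, with blue for negative and red for positive values. *Mip* and *Lim2* form the strongest pair at 0.995, *Aqp1* and *Gja1* reach 0.812, and *Lctl* and *Lgsn* are near the pale middle for most partners.

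Among genes with a mean of at least 10, those most like each of the 8 over the 9 libraries were found by the same r, as a description with no test. They were *Lim2*, *Nomo1* and *Sin3b* for *Mip*, and *Nomo1*, *Mip* and *Bcar3* for *Lim2* (r of 0.994 or more in both). In all of these compound KO replicate 1 had the lowest value, as with *Bcar3* at 50.2 against 120.3 to 141.0 elsewhere. For *Gja1* they were *Lrrn1* (0.970), *Shisa2* and *Nfatc4*. For *Gja3* they were *Ldlrad3* (0.970), *Rps6ka2* and *Per2*, a component of the circadian clock, all lowest in a library other than compound KO replicate 1. For *Aqp1* they were *Zfp760* (0.991), *Acsl3* and *Zfp770*, for *Aqp5* *Hipk2* (0.947), *Sulf1* and *Wfs1*, for *Lgsn* *Pdgfa* (0.982), *Fat1* and *Setd5*, and for *Lctl* *Gtpbp2* (0.900), *Tet3* and *Ephx2*.

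The other genes of lens transport and membranes were read from 6 lists, and none of their genes passed after adjustment with a 1.5-fold change in any comparison of all libraries. Counts by an unadjusted p and 1.5-fold are to be read beside the 2.83% of all genes that passed it in double KO and the 5.34% in compound KO lenses against control, and the 3.06% between the knockouts. Of 21 other connexins and pannexins, 7 were in the table. The highest of them was *Gje1*, a fiber connexin, at 419.3, 475.5 and 420.1 normalized CPM in control, 134.4, 338.6 and 368.5 in compound KO and 344.3, 423.1 and 418.2 in double KO libraries. Its log2 change was −0.15 (SE 0.10) in double KO and −0.77 (SE 0.40) in compound KO lenses against control, of which −0.31 remained without compound KO replicate 1. Per kilobase of transcript it reached 296.1 ± 21.8 in control, between *Lim2* and *Gja1*. *Gjc1* and *Panx1*, a pannexin channel, lay between 7.1 and 13.5 in control libraries, and both had their highest value in compound KO replicate 1 (24.2 and 22.0). *Gjb6* passed an unadjusted p and 1.5-fold in double KO lenses (log2 change −0.79, SE 0.15, adjusted p = 0.197, limma) at values of 1.3 or less in both groups. Of 9 other aquaporins 3 were in the table (*Aqp4*, *Aqp8* and *Aqp11*), all at 5.5 or less in control, and none passed.

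Of 25 partners and regulators of Mip and connexins, 20 were tested between double KO and control lenses, and 2 were lower with an unadjusted p and 1.5-fold. *Bfsp1* encodes filensin of the beaded filament, which binds the tail of the Mip protein. It was at 4539.3, 5520.2 and 4519.0 normalized CPM in control, at 1292.4, 2829.9 and 2828.6 in compound KO and at 2604.0, 2681.6 and 3266.6 in double KO libraries. All 6 *Mafg*-/- libraries lay below control, with log2 changes of −0.77 (SE 0.13, adjusted p = 0.131, limma) in double KO and −1.15 (SE 0.35, adjusted p = 0.481) in compound KO lenses. The ratio of *Mip* to *Bfsp1* was 1.96 ± 0.121 in control, 2.77 ± 0.324 in compound KO and 3.0 ± 0.252 in double KO lenses. *Tjp1*, whose product ZO-1 binds connexins at the membrane, was at 528.5 to 597.8 in control, 188.9 to 444.3 in compound KO and 271.3 to 496.5 in double KO libraries (log2 change in double KO −0.65, SE 0.22, adjusted p = 0.417, limma). *Bfsp1* passed that criterion in double KO lenses with any 1 library left out, *Tjp1* only without double KO replicate 3. *Bfsp1* and *Tjp1* were also the 2 genes of this list, of 21 tested, lower by it in compound KO lenses. Without compound KO replicate 1, *Bfsp1* still passed it there (−0.77) and *Tjp1* did not (−0.45, from −0.82), and *Bfsp1* lost it without control replicate 2 (−1.06). Of the 6 fits there with a library left out, *Bfsp1* passed in 5 and *Tjp1* in 1. *Nedd4*, a ubiquitin ligase that acts on Cx43, was at 1264.0, 687.4 and 1248.3 in control and at 1222.7, 627.9 and 1253.6 in compound KO libraries, but between 693.8 and 735.7 in double KO libraries. Its log2 change in double KO against control lenses was −0.53 and did not pass, but without control replicate 2 it was −0.82 and passed after adjustment (adjusted p = 0.0135, limma). *Ezr* (ezrin) did not pass in any comparison.

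Of 24 other fiber membrane and adhesion genes, 21 were tested between double KO and control lenses, with 1 higher and 1 lower by an unadjusted p and 1.5-fold. *Ncam1*, a neural cell adhesion molecule, was at 2.3, 15.2 and 3.1 in control, 76.8, 37.8 and 26.5 in compound KO and 28.6, 17.3 and 28.3 in double KO libraries (log2 change in double KO 2.06, SE 0.64, adjusted p = 0.379, limma). *Nrcam*, a relative of it that binds ankyrin, was lower, at 61.0 to 131.7 in control, 36.4 to 53.4 in compound KO and 32.8 to 56.9 in double KO libraries (log2 change −1.15, SE 0.34, adjusted p = 0.364, limma). In compound KO lenses 3 were higher (*Ncam1*, *Emp3* and *Cldn1*) and 2 lower (*Nrcam* and *Cdh1*, the E-cadherin of the epithelium) by that criterion. *Ncam1*, *Emp3* and *Nrcam* passed it there with any 1 library left out. Of 6 such fits *Cdh1* passed in 2 and *Cldn1* in 1. *Cdh1* fell from −0.87 to −0.54 without compound KO replicate 1, and *Cldn1* to 0.57 without control replicate 2, both under 1.5-fold. *Cdh1* was at 228.2 to 239.2 in control, 79.9 to 171.0 in compound KO and 167.4 to 185.5 in double KO libraries. Its log2 change in double KO against control lenses was −0.43 (SE 0.05, adjusted p = 0.0638, limma), under 1.5-fold. The groups did not overlap there, as for 15.8% of all genes. In double KO lenses *Ncam1* and *Nrcam* lost that criterion with 4 and 3 of the 6 libraries left out in turn. *Emp3* and *Cldn1* were also lower by it in double KO than in compound KO lenses, and both lost it without double KO replicate 2 (−0.66 and −0.53). Of 6 such fits *Emp3* passed in 5 and *Cldn1* in 2. The 3 highest of the list in control, *Cd24a*, *Sptbn1* (beta-spectrin) and *Cdh2* (N-cadherin), had log2 changes of 0.00, −0.26 and −0.06 in double KO lenses.

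Ion pumps and solute carriers supply the fiber cells. Of 25 sodium pump and ion transport genes tested between double KO and control lenses, none passed by an unadjusted p and 1.5-fold, and the median log2 change was −0.01 beside 0.01 over all genes. The log2 changes of the calcium pump *Atp2a2* and the pump subunit *Atp1b3* were −0.01 and −0.10. *Slc12a7*, a potassium chloride cotransporter, was lower in double KO than in compound KO lenses by an unadjusted p and 1.5-fold (−0.59, SE 0.23, adjusted p = 0.665, limma), a call that held in only 1 of 6 fits with a library left out and was −0.42 without compound KO replicate 1. Of 14 glucose, amino acid and monocarboxylate transporters, 1 was higher by that criterion in double KO lenses, the glucose transporter *Slc2a3*, at 0.8 to 1.1 in control and 1.3 to 2.8 in double KO libraries, which passed in 2 of 6 fits with a library left out. The main glucose transporter *Slc2a1* was at 691.8 to 708.8 in control and 792.5 to 926.2 in double KO libraries (log2 change 0.29, SE 0.07, adjusted p = 0.251, limma), and the amino acid transporter *Slc7a5* at 890.6 to 966.0 and 697.5 to 757.0 (−0.36, SE 0.05, adjusted p = 0.104), both without overlap and under 1.5-fold. *Slc3a2*, the partner of *Slc7a5*, differed by 0.10. In compound KO lenses *Slc1a5* was higher by that criterion (log2 change 0.62, SE 0.18, adjusted p = 0.481, limma), and passed in 4 of 6 such fits.

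**Figure D5:**
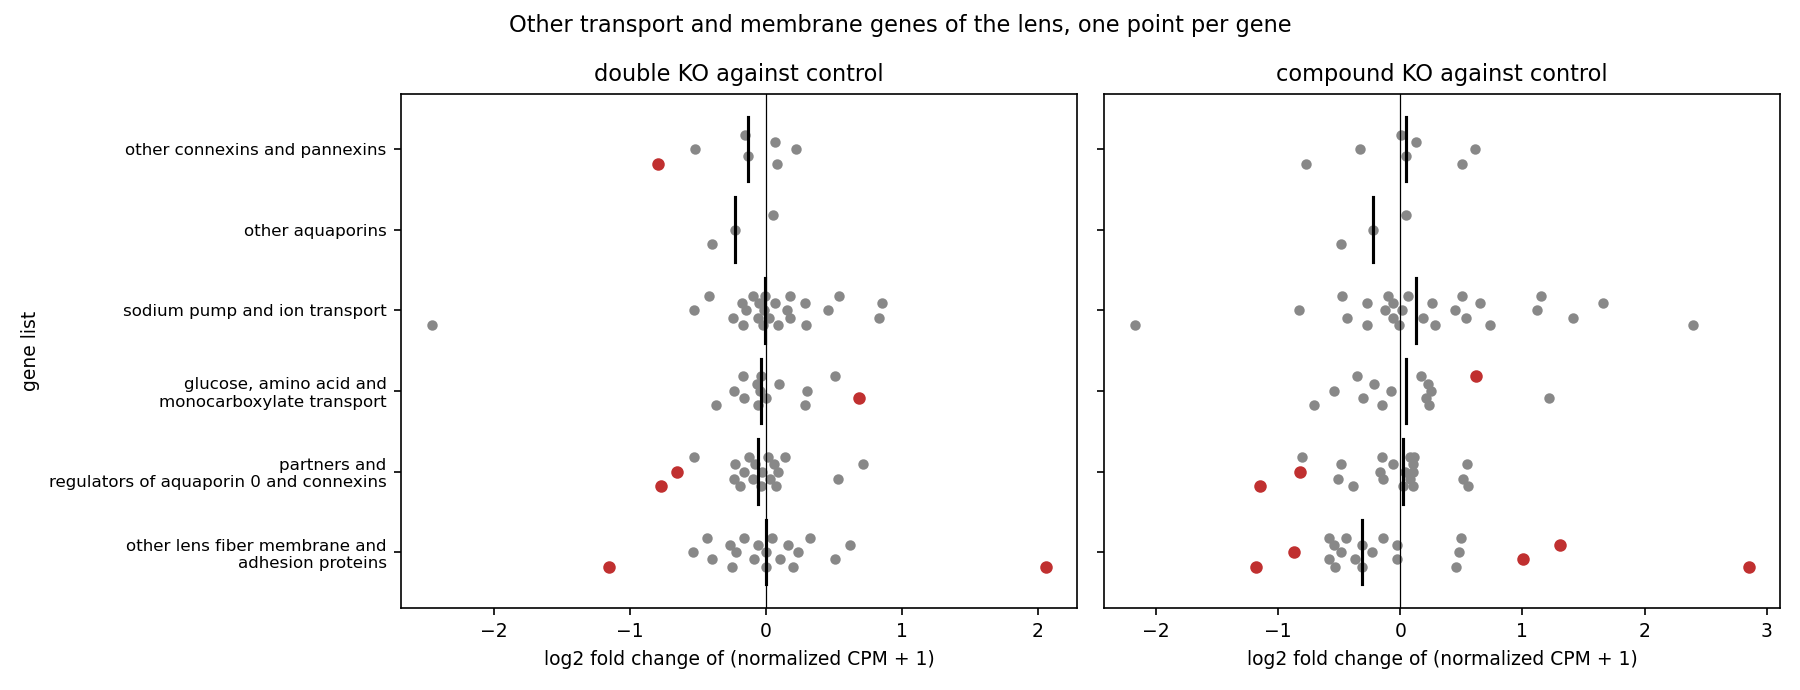
Log2 fold change of normalized CPM + 1 (horizontal axes) for the genes of 6 lists in double KO (left) and compound KO (right) against control lenses, 1 point per gene, with list medians as vertical bars and genes past an unadjusted p of 0.05 and 1.5-fold in red. No list gene passed after adjustment, and in double KO lenses the list medians lie between −0.23 and 0.00.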

How the data were processed

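The authors isolated total RNA with a mirVana kit, removed small RNA and sequenced strand-specific paired-end libraries on a NovaSeq. HISAT2 alignment to mm39 was followed by StringTie, whose transcript-level counts the authors analysed in edgeR after removal of entries with low CPM. The submitters' processing notes also name Trimmomatic and Cufflinks, and versions are not given in the sources used here. The deposited signal is CPM that the authors normalized, read from library totals of 728036.1 to 1131183.5 with a geometric mean of 1000012. Depth is unknown. Libraries were grouped as labelled, and 0 sample columns were left unused. The labels do not say which embryos or litters were pooled. The limma p-values set differences between groups against the spread between these libraries, moderated over all entries tested.

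The 8 genes, the gene lists and the tests were chosen with earlier results of these data known. For each pair of groups, entries with a symbol that reached a value of 1 in 2 or more of the 6 libraries were fitted with limma 3.58.1 (R 4.3.3, intensity trend) on log2(value + 1), two-sided, with Benjamini-Hochberg adjustment over all entries tested. The fit was tested on simulated data. Leaving out each library for the other listed genes was added after the data were seen. Ratios and correlations were tested by exact permutation over libraries (scipy 1.17.1, Python 3.11.15). Positions come from GENCODE M39 on GRCm39. Named genes are the 8, the targeted genes, the 3 highest control means and up to 4 smallest unadjusted p-values at 1.5-fold per list and comparison, and the 3 genes most correlated with each of the 8. Entries without a symbol (24.97% to 35.51% of a library's total) were left out of the tests.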

Additional observations from a re-analysis of the deposited data

How the results depend on the processing

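Of 331 log2 changes of the 8 genes recomputed under alternatives (library size only, upper quartile scaling, no filter, a minimum of 1 in every library, 1 fit of all 9 libraries, a replicate block, a pseudocount of 0.1, summed entries, and each library left out), 303 kept their direction and side of an unadjusted p of 0.05 with 1.5-fold, 7 lost that criterion, 9 gained it and 12 changed sign. None of the 8 genes passed after adjustment in any of them, and the smallest adjusted p was 0.327. *Aqp5* and *Lgsn* have fewer alternatives because a minimum of 1 in every library removed them from some comparisons. The cause of the changes below was not tested.

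The number of the 8 genes past an unadjusted p and 1.5-fold in double KO against control lenses was 1 and became 0 with library size only, with a replicate block and with a pseudocount of 0.1, and ranged from 0 to 2 with a library left out. In compound KO against control lenses it was 0 and became 1 with library size only (*Gja1*), 1 fit of all 9 libraries (*Aqp1*), a replicate block (*Aqp1*) or no fold threshold (*Gja3*), and ranged from 0 to 1 with a library left out. In double KO against compound KO lenses it was 0 and became 1 (*Gja1*) with library size only or no fold threshold. With a library left out, log2 changes that turned sign ranged from −0.20 to 0.24 (*Gja1*), −0.44 to 0.85 (*Lctl*) and −0.28 to 0.96 (*Lgsn*) in double KO against control, from −0.50 to 0.79 (*Lctl*) in compound KO against control, and from −0.0027 to 0.23 (*Aqp5*), −0.29 to 0.37 (*Lctl*) and −0.65 to 0.59 (*Lgsn*) in double KO against compound KO lenses. *Lctl* also turned to −0.12 there with library size only, and the correlation of *Aqp1* with *Lim2* turned to 0.119 without the 2 farthest libraries.

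The number of all genes called after adjustment was 51 in double KO against control lenses, 21 with 1 fit of all 9 libraries, 10 with a replicate block and 22 to 47 with a library left out. It was 0 in compound KO against control lenses, 2 with 1 fit of all 9 libraries and 0 to 13 with a library left out, with 13 without compound KO replicate 1. It was 2 in double KO against compound KO lenses, 0 with a replicate block or with a minimum of 1 in every library, 1 with a pseudocount of 0.1, 5 with 1 fit of all 9 libraries and 1 to 6 with a library left out. The replicate numbers share no stated litter or day, so that same-numbered libraries were not treated as paired in the main fit. After removal of group means they correlated by −0.11 to 0.22, and differently numbered libraries by −0.22 to 0.19. Most same-numbered pairs were above 0 and most others below it. Whether the numbers mark a shared factor was not tested. Depth is unknown, which limits the genes near 1 unit (*Aqp5* and *Lgsn*) most.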
